A study of Homo sapiens with 4 samples.

Results

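The genes described here are 41 genes of the machinery that stores and releases vesicles in neurons and neuroendocrine cells. They comprise synaptotagmins, vesicle membrane proteins, SNAREs, Rab GTPases, docking and priming factors, granins, prohormone-processing enzymes and the neuroendocrine transcription factors INSM1 and NEUROD1. Members were taken by symbol, and all 41 were found among the 60483 Ensembl identifiers of the count tables. RNA was sequenced from C4-2, an established human prostate cancer line derived from LNCaP cells, in 2 enzalutamide-resistant libraries (C4-2-ENZ) and 2 control libraries (C4-2-CON). Enzalutamide is an antiandrogen that blocks the androgen receptor. Per the labels, C4-2 cells were grown in serum-containing RPMI 1640 with antibiotic/antimycotic and were given or not given the drug for 1 month, and the growth protocol also names FGF-2 without saying which cells received it. The labels leave unsaid the drug dose, the use of a vehicle in control cells, and whether the resistant cells were 1 clone. Every group carries the same cell line background, and an effect of the drug itself cannot be told apart from resistance.

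Regulated secretion runs in a fixed order. Hormone precursors and granins are packed into dense-core granules and trimmed by convertases and carboxypeptidase E. Rab3 and Rab27 GTPases carry granules to the membrane, RIM, Munc13 and CAPS proteins dock and prime them, and a SNARE complex fuses them when a synaptotagmin senses calcium. In prostate cancer, chromogranin A, synaptophysin and INSM1 are used as markers of neuroendocrine differentiation, which can appear under androgen receptor blockade. The repressor REST silences many of these genes in non-neuronal cells by binding a DNA element called RE1.

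The RefSeq promoter windows of 5 members (GRCh38.p14, 250 bases before to 50 after the gene's start, on the gene's own strand) are shown because they carry letters of RE1 or of the cAMP response element CRE while their genes sat at very different levels. Windows were found for 32 of the 41 members. Capitals mark the 3 strings searched on both strands: TCAGCACC from the left arm of RE1, GGACAGCG from its right arm, and the CRE TGACGTCA, none of which overlapped another in these windows.
SYT4 chr18:43277441-43277740 (-): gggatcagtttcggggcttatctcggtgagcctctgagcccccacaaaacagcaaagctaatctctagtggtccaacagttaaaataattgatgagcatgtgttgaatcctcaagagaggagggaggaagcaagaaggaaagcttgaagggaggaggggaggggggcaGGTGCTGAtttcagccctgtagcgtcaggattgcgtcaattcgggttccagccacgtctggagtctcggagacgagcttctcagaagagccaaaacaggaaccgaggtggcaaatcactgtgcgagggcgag
SCG3 chr15:51681253-51681552 (+): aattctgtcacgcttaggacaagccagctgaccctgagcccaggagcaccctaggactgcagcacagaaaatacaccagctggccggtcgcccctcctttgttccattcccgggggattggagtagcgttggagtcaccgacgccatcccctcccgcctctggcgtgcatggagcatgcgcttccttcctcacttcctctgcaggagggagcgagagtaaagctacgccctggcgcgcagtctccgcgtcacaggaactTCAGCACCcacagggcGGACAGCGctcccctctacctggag
UNC13A chr19:17688305-17688604 (-): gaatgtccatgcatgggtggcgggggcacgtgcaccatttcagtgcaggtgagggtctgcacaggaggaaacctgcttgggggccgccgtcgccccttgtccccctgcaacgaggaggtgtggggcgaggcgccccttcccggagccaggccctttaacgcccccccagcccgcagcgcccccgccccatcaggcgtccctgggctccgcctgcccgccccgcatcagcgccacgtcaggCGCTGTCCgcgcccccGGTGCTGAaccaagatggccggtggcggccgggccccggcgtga
SYN1 chrX:47619808-47620107 (-): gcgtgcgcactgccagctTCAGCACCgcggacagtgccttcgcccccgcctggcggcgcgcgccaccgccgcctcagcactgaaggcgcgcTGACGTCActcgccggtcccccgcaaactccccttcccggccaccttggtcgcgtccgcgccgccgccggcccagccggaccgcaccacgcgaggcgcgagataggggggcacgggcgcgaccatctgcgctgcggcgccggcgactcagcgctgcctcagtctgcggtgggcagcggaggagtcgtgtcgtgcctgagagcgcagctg
CHGA chr14:92922900-92923199 (+): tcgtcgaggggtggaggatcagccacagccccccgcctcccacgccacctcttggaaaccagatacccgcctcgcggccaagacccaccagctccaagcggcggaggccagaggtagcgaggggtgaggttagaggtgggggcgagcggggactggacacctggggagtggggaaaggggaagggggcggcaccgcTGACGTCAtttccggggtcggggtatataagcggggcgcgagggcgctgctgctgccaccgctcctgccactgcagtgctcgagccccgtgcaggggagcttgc
The left arm of RE1 lay in the windows of 6 of 32 members (18.8%: SYT3, SYT4, SYN1, SV2B, UNC13A and SCG3), and 1.7% of all 27305 promoter windows held it. The right arm lay in 3 members (UNC13A, SCG3 and PCSK2, 9.38%) and in 1.72% of all windows. In SCG3 and UNC13A both arms stood on the same strand with 8 bases between them, a spacing that was not compared with that of a full RE1. The search took exact letters only. In SYN1 the left arm is followed by gc and then ggacagtg, 1 letter off the right arm string, so that window is not counted for the right arm. The CRE lay in 3 members (SYN1, CHGA and PCSK1, 9.38%) and in 1.98% of all windows. An androgen receptor hexamer, AGAACA, was in 1 member window (SYT3), against 14.9% of all windows. The AP-1 string TGANTCA was in 4 (SYP, RAB3B, RIMS1 and PCSK1N, 12.5%), against 7.76% of all windows. A match is a description of letters and not a binding site, and the start used in these cells was not measured. The SYT3 window (chr19:50658056-50658355) lies outside the annotated gene that was counted (50621307 to 50639827). Some other windows, such as that of SV2A, lie inside the gene.

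**Figure D1:**
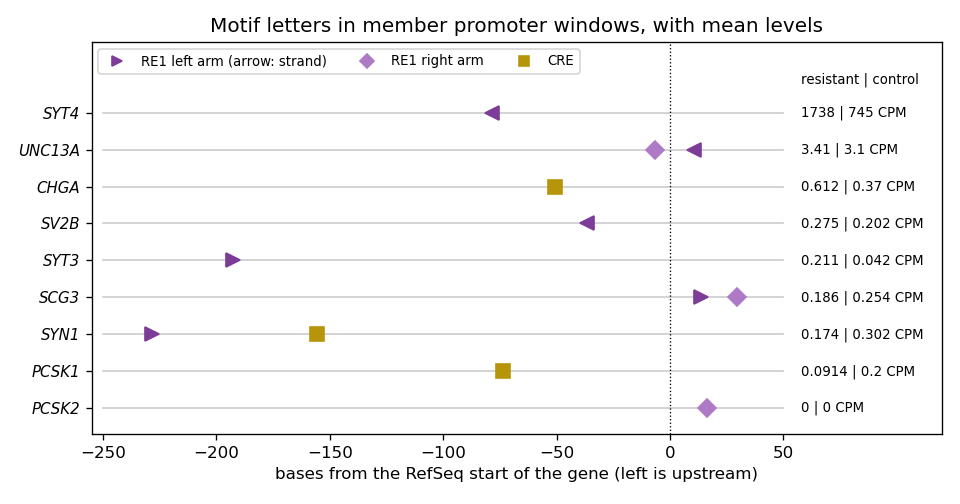
Positions of the RE1 arms and the CRE in the promoter windows of the 9 members that hold any of them; the x axis is the distance in bases from the RefSeq start, arrows give the strand of the RE1 left arm, and the numbers at the right are mean CPM in enzalutamide-resistant and control libraries. SYT4, with an RE1 left arm at -82 to -75, stood at 1738 and 745 CPM, while SCG3, with both arms, stood at 0.186 and 0.254 CPM. UNC13A, also with both arms, stood at 3.41 and 3.1 CPM, and SV2B, with the left arm only, at 0.27 and 0.2 CPM.

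Gene counts summed to 45033885 and 39047453 in the resistant libraries and to 25589724 and 29866008 in the control libraries. Levels are CPM, normalised read counts on library sizes scaled by TMM, and log2 fold changes are resistant over control on that scale. A gene was called at a Benjamini-Hochberg adjusted p below 0.05 in the quasi-likelihood test of edgeR over all 20325 genes tested. Nothing in the labels tells whether the replicates were grown apart, and the p-values thus rest on a spread between libraries that may be technical. The labelled cell type was checked by markers: 12 prostate luminal genes, among them KLK3 and FOLH1, were all tested and summed to 4936 and 4942 CPM in resistant libraries and 3491 and 3504 CPM in control libraries. Markers of other cells were low. In resistant and control libraries, 8 fibroblast markers summed to 8.88 to 9.37 and 9.19 to 11.4 CPM. COL1A2 was at 0 in every library, while COL1A1 averaged 5.31 and 7.07 CPM. Of 3 fibroblast markers tested, COL3A1 was called higher, COL1A1 lower and PDGFRB neither. The 7 endothelial markers summed to 3.74 to 4.36 and 4.67 to 5.37 CPM. PECAM1 had no more than 3 counts, while VWF averaged 2.86 and 4.37 CPM and was called lower. KDR, with 24 and 13 counts against 0 and 1, and ESAM were called higher. The 8 leukocyte markers summed to 4.39 to 4.44 and 2.01 to 2.03 CPM, with CD3E at 0, and ITGAM alone averaged 3.21 and 0.314 CPM. The 12 neural stem cell and neuron markers summed to 16.4 to 17.6 and 37.5 to 42.4 CPM. MAP2 alone averaged 5.3 and 30.4 CPM, while GRIN1 went the other way, at 7.61 and 3.25 CPM. Of 6 neural markers tested, 1 was called higher and 2 lower. Records not assigned to a gene, unaligned ones included, made up 55.41% and 56.87% of those in resistant libraries and 74.4% and 71.08% in control libraries. Unaligned records alone were 20.32% and 20.66% of all records in resistant libraries and 36.95% and 34.16% in control libraries. The part of these markers and of these shares in the results was not tested.

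C4-2 cells carried part of the secretory machinery at high levels and had other parts at or near 0. Of the 41 members, 18 averaged at least 1 CPM in resistant cells and 17 in control cells. Another 6 (SYT6, SNAP25, CADPS, CHGB, PCSK2 and INSM1) had at most 3 counts in every library, and 3 of these (SYT6, PCSK2 and INSM1) had 0 in all 4. A count of 0 allows up to 0.0622 and 0.0724 CPM in the resistant libraries and 0.126 and 0.107 CPM in the control libraries, for counting error only. For the test, 26 members had enough counts and 15 did not. Of the 26, 23 reached the count minimum in all 4 libraries and SYT1 reached it in both libraries of the resistant group only, so that gene had to differ to be tested.

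In resistant cells 15 of the 26 members tested were called, where 64.7% of all genes tested were: 12 rose (SYT1, SYT4, SYT7, SYT13, SYT17, VAMP2, RAB27A, RAB27B, CADPS2, RIMS1, PCSK1N and CPE) and 3 fell (RAB3A, RAB3B and RAB3D). The 12 and the 3 are 46.2% and 11.5% of the members tested (29.3% and 7.32% of all 41), beside 33.0% higher and 31.7% lower of all genes tested, and 42.3% and 31.4% of the protein-coding genes tested. At least 2-fold higher were 7 of them (26.9% of those tested), beside 7.58% of all genes and 8.76% of protein-coding genes. With a correction for transcript length and GC content RIMS1 and SYT13 fell short of 2-fold, at log2 fold changes of 0.79 and 0.87. Without control replicate 2 SYT13 and RAB27A did, at 0.73 and 0.996. SYT13 also did without resistant replicate 1 (0.737), with a filter of 1 CPM (0.965) and with a block for replicate number (0.98). None was called at least 2-fold lower, where 10.1% of all genes and 7.26% of protein-coding genes were. Both resistant libraries lay above both control libraries for 16 members tested and below them for 4, beside 40.4% and 40.9% of all genes tested. SYT1, which had to differ to be tested, is among the 12, the 7 and the 16. The median log2 fold change of the 26 was 0.52, against -0.02 over all genes tested and 0.09 over protein-coding genes. With libraries scaled by total count, which moved the median gene by 0.19 on the log2 scale, 13 members were higher and 1 lower, beside 42.4% and 23.4% of all genes tested. In bulk RNA, more cells with a transcript and more RNA per cell cannot be told apart.

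**Figure D2:**
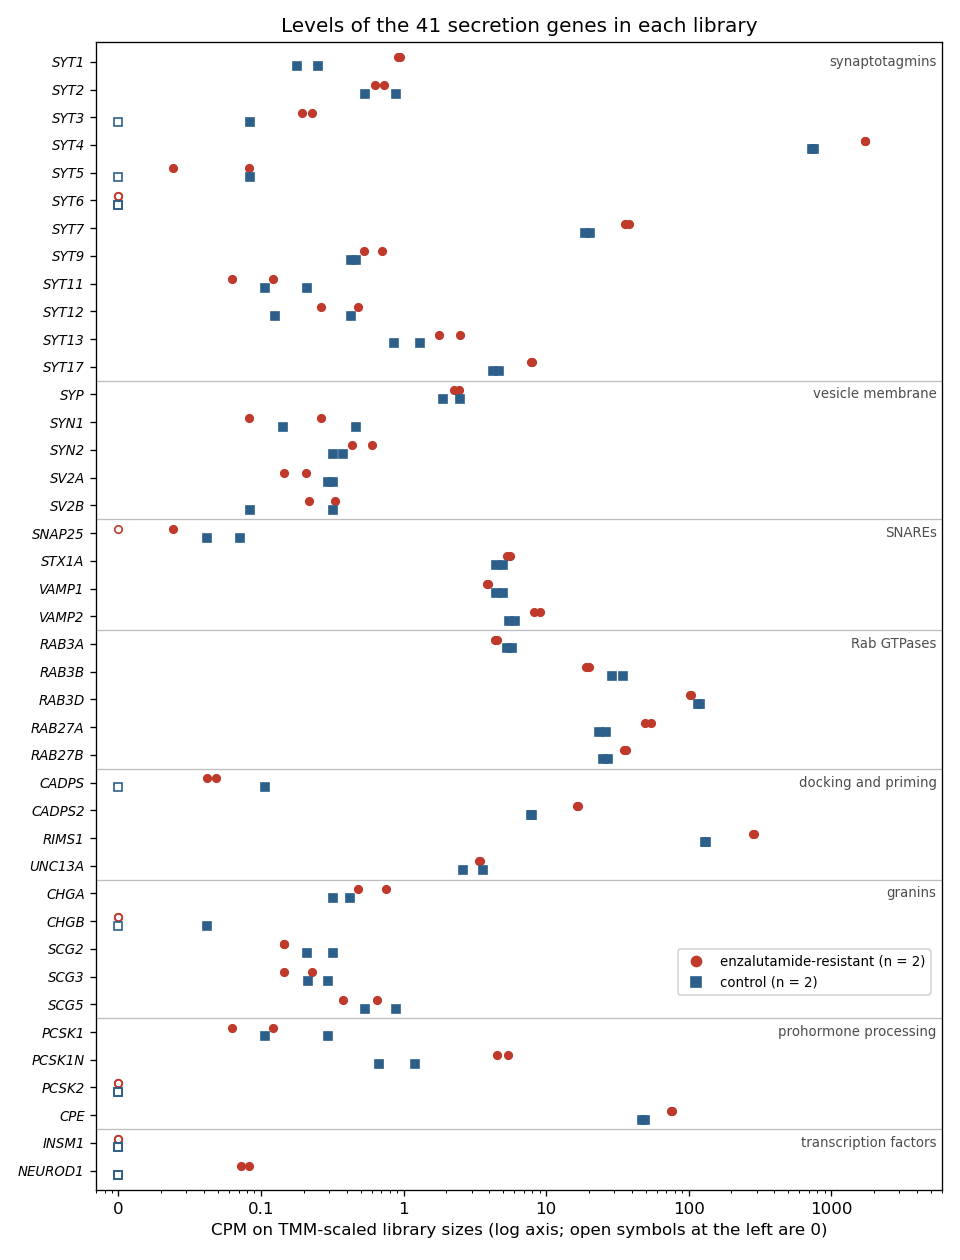
Level of each of the 41 members in each library, in CPM on a log axis, with enzalutamide-resistant libraries as circles above control libraries as squares and open symbols for a count of 0. SYT4 lies far to the right of every other synaptotagmin, and CHGB, PCSK2 and INSM1 lie at the left edge.

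Among the synaptotagmins, SYT4 dominated. SYT4, a synaptotagmin of dense-core vesicles in neurons and endocrine cells, lies on chromosome 18 at 43267878 to 43277650 (GRCh38, minus strand). It stood at 1733 and 1743 CPM in the resistant libraries, against 761 and 729 CPM in the control libraries. Both resistant libraries were more than 2-fold above both control libraries, with a log2 fold change of 1.22 (SE 0.0332 and adjusted p = 6.84e-11 in edgeR, n = 2 per group). Per kilobase of exon, its level averaged 392 CPM in resistant and 168 CPM in control cells, rank 45 and rank 223 of the 56753 genes matched to GENCODE 29. The per-kilobase levels of all 41 members summed to 501 and 504 CPM per kilobase in resistant libraries and to 251 and 243 in control libraries. Of those sums SYT4 made up 78.0% in each resistant library, against 68.5% and 67.5% in control libraries.

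SYT7, a slow, high-affinity calcium sensor that also serves lysosome exocytosis, was next among synaptotagmins. It had 35.6 and 38.3 CPM in resistant libraries, against 20.3 and 18.9 CPM in control libraries (log2 fold change 0.92 with SE 0.065, adjusted p = 1.59e-07 in edgeR). With a correction for transcript length and GC content its log2 fold change was 0.54, still called. SYT17, which does not need calcium to bind membranes, had 8.03 and 7.89 CPM in resistant libraries, against 4.70 and 4.28 CPM in control libraries, and rose 1.78-fold. SYT13, another member without calcium binding, had 2.49 and 1.76 CPM in resistant libraries, against 1.30 and 0.855 CPM in control libraries. It rose 2.01-fold, with replicates spread widely in both groups (edgeR adjusted p = 0.00421).

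SYT1, the calcium sensor of fast synaptic release on chromosome 12 at 78863993 to 79452008, was near the detection limit in control cells. It had 44 and 39 counts in resistant libraries (0.913 and 0.941 CPM), against 6 and 5 counts in control libraries (0.252 and 0.178 CPM). The groups did not overlap, and the log2 fold change was 2.11 (SE 0.341 and adjusted p = 0.000191 in edgeR). Because SYT1 reached the count minimum through the resistant libraries only, neither the lack of overlap nor the test is independent of that filter. Its close relative SYT2 had 0.726 and 0.627 CPM in resistant libraries, against 0.881 and 0.535 CPM in control libraries, and was not called. PPP1R12B on the other strand covers 27.2% of the exonic bases of SYT2, and the labels leave unsaid whether counting used strand. SYT9, a granule calcium sensor, had 0.705 and 0.531 CPM in resistant libraries, against 0.461 and 0.428 CPM in control libraries, which did not pass the test (edgeR adjusted p = 0.206). SYT12 had 0.477 and 0.265 CPM in resistant libraries and 0.126 and 0.428 CPM in control libraries, so the groups overlapped.

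The other 4 synaptotagmins were below the count minimum of the test. SYT3 had 11 and 8 counts in resistant libraries, against 2 and 0 in control libraries, a count ratio of 5.5 (95% interval 1.33 to 48.7, counting error only), and was called higher only where no count filter was used (edgeR adjusted p = 0.0159). SYT5 had 4 and 1 counts in resistant libraries, against 2 and 0 in control libraries. SYT11 had 3 and 5 counts in resistant libraries, against 5 and 3 in control libraries, and SYT6 had none.

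Of 5 synaptic vesicle membrane proteins 3 could be tested, and none was called. Synaptophysin, encoded by SYP and a marker of neuroendocrine tumours, had 2.45 and 2.27 CPM in resistant libraries, against 2.48 and 1.89 CPM in control libraries. The groups overlapped, and the log2 fold change was 0.13 (95% interval -0.27 to 0.52, edgeR adjusted p = 0.559). Synapsins tether vesicles to actin, and both were low: SYN2 had 0.435 and 0.603 CPM in resistant libraries, against 0.378 and 0.321 CPM in control libraries (edgeR adjusted p = 0.199). SYN1, whose window holds the RE1 left arm and the CRE, had 4 and 11 counts in resistant libraries and 11 and 4 in control libraries (0.083 and 0.265 CPM in resistant, against 0.461 and 0.143 CPM in control libraries). SV2A, a vesicle glycoprotein, had 0.207 and 0.145 CPM in resistant libraries, against 0.294 and 0.321 CPM in control libraries and was too low to test. Its relative SV2B had 0.332 and 0.217 CPM in resistant libraries, against 0.0839 and 0.321 CPM in control libraries and was not called.

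Among the neuronal SNAREs VAMP2 rose and SNAP25 was near 0. SNAP25, a plasma membrane partner in it, had 0 and 1 counts in resistant libraries and 1 and 2 in control libraries. Syntaxin 1A, encoded by STX1A, had 5.62 and 5.36 CPM in resistant libraries, against 4.99 and 4.49 CPM in control libraries. It was not called (log2 fold change 0.22, 95% interval -0.04 to 0.47), but under total count scaling it was (0.405, edgeR adjusted p = 0.00946), and 17.9% of its exonic bases overlap BUD23. Synaptobrevin 2, encoded by VAMP2 and the vesicle SNARE of regulated release, rose 1.5-fold, with 8.23 and 9.0 CPM in resistant libraries, against 6.04 and 5.45 CPM in control libraries (edgeR adjusted p = 0.000276). Of its exonic bases, 13.2% are shared with AC129492.3 on the same strand. VAMP1 had 3.86 and 3.88 CPM in resistant libraries, against 4.99 and 4.42 CPM in control libraries. The resistant values were below both control values, but the gene was not called (edgeR adjusted p = 0.0718), and TAPBPL on the opposite strand covers 9.47% of its exonic bases.

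Rab GTPases split by subfamily: both RAB27 genes rose and all 3 RAB3 genes among the members fell, of which RAB3A and RAB3D did not pass the test under total count scaling or without a count filter. RAB27A, on chromosome 15 at 55202966 to 55319113, docks granules and lysosome-related organelles. It had 49.6 and 54.8 CPM in resistant libraries, against 26.3 and 23.6 CPM in control libraries (log2 fold change 1.07 with SE 0.0686, adjusted p = 6.85e-08 in edgeR). RAB27B, its paralog in secretory epithelium, had 35.1 and 36.2 CPM in resistant libraries, against 27.1 and 25.2 CPM in control libraries and rose 1.36-fold. For neither gene did the groups overlap. RAB3B had 19.0 and 20.2 CPM in resistant libraries, against 34.8 and 28.8 CPM in control libraries, a log2 fold change of -0.70 (SE 0.0827 and adjusted p = 1.5e-05 in edgeR). RAB3D, a Rab of exocrine granules and the most abundant of the 5 by CPM per kilobase (23.3 in resistant and 26.8 in control cells), had 103.8 and 101.7 CPM in resistant libraries, against 116.4 and 120.6 CPM in control libraries. RAB3A, the main neuronal form, had 4.54 and 4.39 CPM in resistant libraries, against 5.29 and 5.81 CPM in control libraries. The falls of RAB3D and RAB3A were small, with log2 fold changes of -0.21 and -0.31 (edgeR adjusted p = 0.00113 and 0.033). Under total count scaling their edgeR adjusted p was 0.735 and 0.365, and without resistant replicate 2 it was 0.0579 and 0.142. RAB3A also lost its call without control replicate 2 (edgeR adjusted p = 0.191) and without resistant replicate 1 (0.0855), and by DESeq2 (adjusted p = 0.2). On the opposite strand AC011472.3 covers 20.5% of the exonic bases of RAB3D, and MPV17L2 covers 9.08% of those of RAB3A.

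Of the docking and priming factors, RIMS1 and CADPS2 rose. RIMS1, a scaffold of the presynaptic active zone that binds Rab3 on vesicles, lies on chromosome 6 at 71886703 to 72403143. It was abundant, with 281 and 286 CPM in resistant libraries, against 132 and 131 CPM in control libraries. The log2 fold change was 1.11 (SE 0.0381 and adjusted p = 3.7e-10 in edgeR), and 0.79 with the length and GC correction. CADPS2, a CAPS protein that primes dense-core vesicles, had 16.6 and 16.6 CPM in resistant libraries, against 7.89 and 7.98 CPM in control libraries and rose 2.09-fold. Its paralog CADPS had 2 and 2 counts in resistant libraries and 0 and 3 in control libraries. UNC13A, a Munc13 priming factor with both RE1 arms in its window, had 3.40 and 3.43 CPM in resistant libraries, against 2.60 and 3.60 CPM in control libraries. It was not called (log2 fold change 0.13, 95% interval -0.23 to 0.48).

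**Figure D3:**
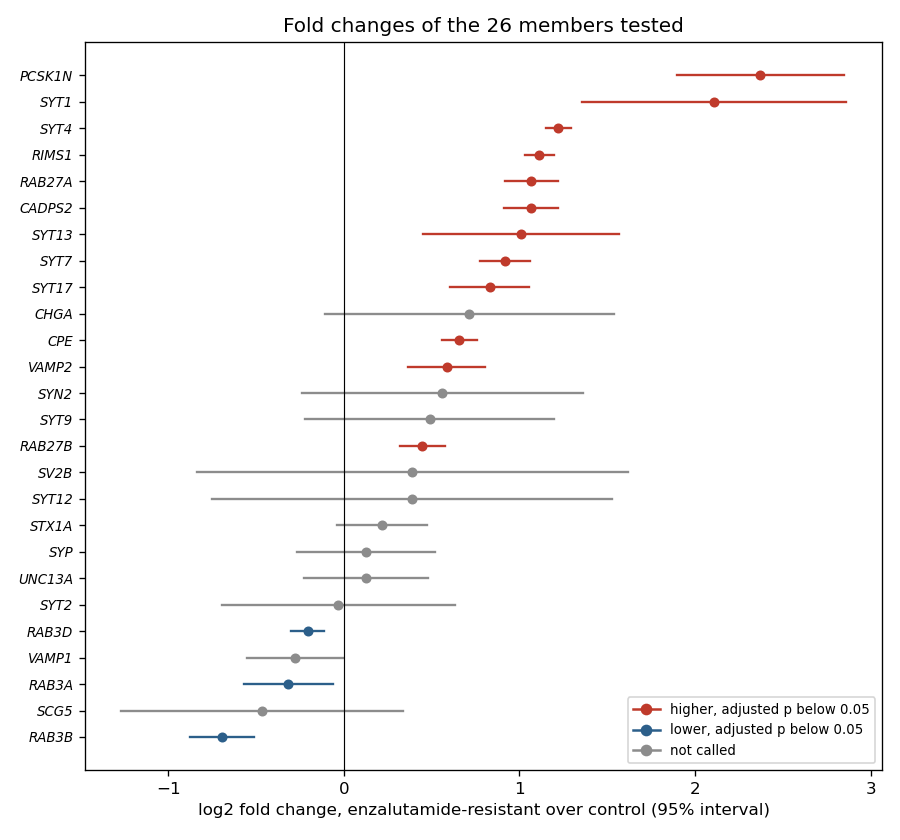
Log2 fold change, resistant over control, of each of the 26 members tested, with 95% intervals from the edgeR standard error and colours for the call. PCSK1N and SYT1 lie highest with wide intervals, SYT4 and RIMS1 have narrow ones, and RAB3B lies lowest.

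Granins, the bulk cargo of neuroendocrine granules, were near or below the detection limit. Chromogranin A, encoded by CHGA, had 23 and 31 counts in resistant libraries (0.477 and 0.748 CPM), against 10 and 9 counts in control libraries (0.42 and 0.321 CPM). The groups did not overlap, but the gene did not pass the test (log2 fold change 0.71, 95% interval -0.11 to 1.54, edgeR adjusted p = 0.115). CHGB had no count in resistant libraries and 1 and 0 in control libraries. SCG2 had 7 and 6 counts in resistant libraries, against 5 and 9 in control libraries. SCG3, a granin-binding sorting protein whose window holds both RE1 arms, had 0.228 and 0.145 CPM in resistant libraries, against 0.294 and 0.214 CPM in control libraries. SCG5, the chaperone of the convertase encoded by PCSK2, had 0.373 and 0.651 CPM in resistant libraries, against 0.881 and 0.535 CPM in control libraries and was not called (edgeR adjusted p = 0.288).

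Processing genes were present without the neuroendocrine convertases. PCSK2 had no count, and PCSK1 had 3 and 5 counts in resistant libraries and 7 and 3 in control libraries. Carboxypeptidase E, encoded by CPE, trims basic residues from prohormones and sorts cargo into granules. The gene lies on chromosome 4 at 165361194 to 165498320. Per kilobase it was the second most abundant member in resistant cells, at 25.7 CPM per kilobase, against 16.3 in control cells. It had 76.8 and 75.4 CPM in resistant libraries, against 46.8 and 49.6 CPM in control libraries (log2 fold change 0.66 with SE 0.0449, adjusted p = 1.14e-07 in edgeR). PCSK1N, which encodes proSAAS, an inhibitor of the convertase PCSK1, had the largest rise of the 26 members tested as reported, but SYT1 stood above it with the length and GC correction (2.14 against 1.99 on the log2 scale) and without control replicate 1 (2.36 against 2.04). The gene lies on chromosome X at 48831094 to 48835633 (GRCh38). It had 5.41 and 4.54 CPM in resistant libraries, against 0.671 and 1.21 CPM in control libraries, and no overlap (log2 fold change 2.37 with SE 0.217, adjusted p = 1.49e-06 in edgeR). The size depends on which control library is used, with log2 fold changes of 2.04 without control replicate 1 and 2.9 without control replicate 2.

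The neuroendocrine transcription factors were at or near 0. INSM1, a zinc finger factor of endocrine progenitors, had no count in any library. NEUROD1, a basic helix-loop-helix factor, had 4 and 3 counts in resistant libraries and none in control libraries, near the floor of 3 counts, and no fold is given.

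Related lists, chosen with earlier results of these data known, place the members within the wider machinery. Of the 140 genes tested on them, markers of other cells included, 77 were higher and 29 lower (median log2 fold change 0.32), and 64 and 42 with the length and GC correction. Each list's counts stand beside a background of 33.0% higher and 31.7% lower over all genes tested, and 42.3% and 31.4% over protein-coding genes. Of 25 neuroendocrine factors and markers, 12 were tested, with 4 higher and 5 lower (median log2 fold change 0.17), and 1 and 3 by DESeq2. ENO2, neuronal enolase, rose 5.04-fold, with 42.4 and 40.1 CPM in resistant libraries, against 8.14 and 8.23 CPM in control libraries. NCAM1, a neural adhesion molecule, had 0.581 and 0.458 CPM in resistant libraries, against 0.42 and 0.178 CPM in control libraries and was not called (edgeR adjusted p = 0.0957), though it was under total count scaling (0.0472) and without control replicate 1 (0.0225). PEG10 and the tuft-cell factor POU2F3 fell 3.38-fold and 1.65-fold.

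Of 13 genes of the REST complex with its splicing antagonists, 12 were tested, with 7 higher and 2 lower (median log2 fold change 0.36), and 5 and 5 with the length and GC correction. REST itself had 123.3 and 130.0 CPM in resistant libraries, against 79.1 and 72.0 CPM in control libraries (log2 fold change 0.75 with SE 0.0527, adjusted p = 1.54e-07 in edgeR). Its corepressors RCOR1 and SIN3B rose 1.68-fold and 1.62-fold. SRRM4, the splicing factor that switches REST to a truncated form in neurons, had no count in any library. Of the 6 members with the RE1 left arm in their window, SYT4 rose, SV2B and UNC13A were not called, and SYT3, SYN1 and SCG3 were too low to test.

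Of 16 Rab3 and Rab27 regulators 15 were tested, with 11 higher and 1 lower (median log2 fold change 0.40), and 9 and 3 with the length and GC correction. MYRIP, which links RAB27A to myosin motors, had 187 and 184 CPM in resistant libraries, against 29.4 and 29.1 CPM in control libraries (log2 fold change 2.67 with SE 0.0458, adjusted p = 3.97e-12 in edgeR). Melanophilin, the RAB27A effector encoded by MLPH, rose 1.87-fold, and RAB3GAP1, which switches Rab3 off, rose 1.85-fold. Of 17 other synaptotagmins and synaptotagmin-like proteins, 10 were tested, with 5 higher and 2 lower (median 0.22). SYTL2, a Rab27 effector that docks granules, had 377 and 374 CPM in resistant libraries, against 154.5 and 148.3 CPM in control libraries, and rose 2.48-fold. SYTL1, another Rab27 effector, fell 1.46-fold, and the membrane tether ESYT1 rose 1.38-fold.

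**Figure D4:**
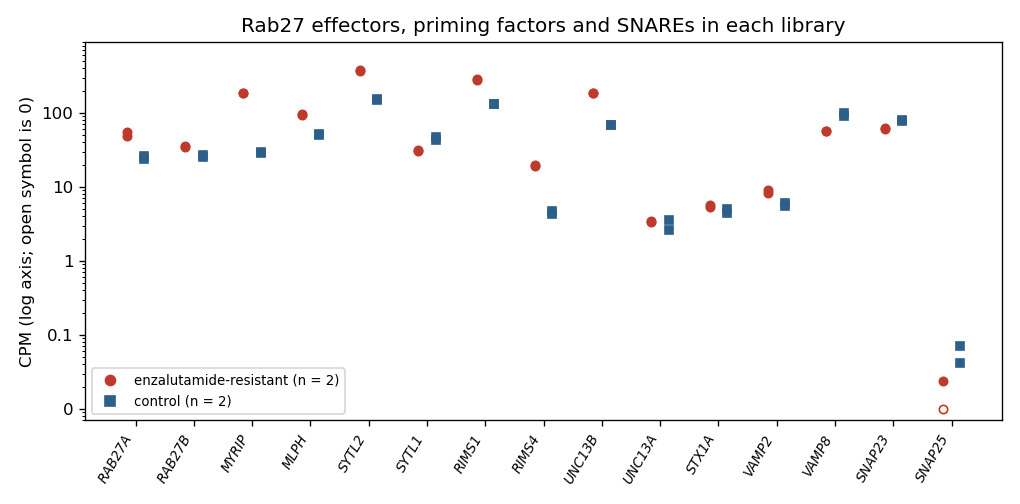
Levels of Rab27 genes and effectors, priming factors and SNAREs in each library, in CPM on a log axis, with enzalutamide-resistant libraries as circles and control libraries as squares. MYRIP, RIMS4 and UNC13B show wide gaps between groups, and SNAP25 lies at the bottom while its paralog SNAP23 lies near 60 to 80 CPM.

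General fusion machinery was present: of 30 genes 28 were tested, with 15 higher and 6 lower (median log2 fold change 0.23). UNC13B, the widely expressed Munc13, had 186 and 184 CPM in resistant libraries, against 67.8 and 68.9 CPM in control libraries, and rose 2.71-fold. RIMS4, a short RIM protein, had 19.6 and 19.5 CPM in resistant libraries, against 4.32 and 4.78 CPM in control libraries and rose 4.29-fold. STXBP5, or tomosyn, which holds SNAREs inactive, fell 2.18-fold. The next genes were chosen after their values were seen, as paralogs of the neuronal SNAREs. SNAP23, the widely expressed relative of SNAP25, had 61.9 and 60.9 CPM in resistant libraries, against 79.8 and 76.8 CPM in control libraries. VAMP8, a vesicle SNARE of exocrine cells, fell 1.65-fold.

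Of 24 genes for granule biogenesis and prohormone processing, 21 were tested, with 14 higher and 2 lower (median log2 fold change 0.47), and 10 and 5 with the length and GC correction. The sorting receptor SORL1 had 119 and 122 CPM in resistant libraries, against 24.1 and 25.1 CPM in control libraries, and rose 4.88-fold. Its relative SORT1 and the granule maturation gene CCDC186 rose 1.84-fold and 1.71-fold. PAM, which amidates peptides, had 21.5 and 21.0 CPM in resistant libraries, against 13.4 and 13.5 CPM in control libraries and rose 1.58-fold. VGF, a granin-like peptide precursor, had 2.53 and 2.70 CPM in resistant libraries, against 3.73 and 3.71 CPM in control libraries and fell 1.42-fold, a call that ended under total count scaling (edgeR adjusted p = 0.0589) and by DESeq2 (adjusted p = 0.0807). Of 16 other vesicle proteins and transporters 9 were tested, with 4 higher and 2 lower (median -0.06). DNAJC5, a vesicle chaperone, and SYNGR1 rose 1.86-fold and 2.23-fold, and SYNGR2 fell 1.33-fold.

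Of 18 peptide hormone genes 7 were tested, with 3 higher and 3 lower (median log2 fold change 0.33), beside 33.0% higher and 31.7% lower of all genes tested. CARTPT and NTS reached the count minimum in the resistant libraries only and had to differ to be tested. Galanin, encoded by GAL, had 3.92 and 4.01 CPM in resistant libraries, against 17.7 and 17.0 CPM in control libraries, and fell 4.37-fold. CARTPT, a neuropeptide precursor, had 109 and 87 counts in resistant libraries, against 3 and 2 in control libraries, a count ratio of 22.7 (95% interval 9.56 to 70.7, counting error only). The parathyroid hormone-like gene PTHLH rose 4.94-fold to 2.28 and 1.71 CPM in resistant libraries, against 0.42 and 0.392 CPM in control libraries. The remaining called genes of the list were added after their values were seen. CALCA, the calcitonin gene, had 0.353 and 0.338 CPM in resistant libraries, against 0.881 and 1.11 CPM in control libraries, and fell 2.88-fold (edgeR adjusted p = 0.000659). Its paralog CALCB had 0.767 and 0.362 CPM in resistant libraries, against 1.01 and 1.11 CPM in control libraries, and fell 1.83-fold with widely spread resistant values (edgeR adjusted p = 0.0355). Neurotensin, encoded by NTS, had 40 and 31 counts in resistant libraries, against 0 and 1 in control libraries, a count ratio of 41.1 (95% interval 7.14 to 1650, counting error only).

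**Figure D5:**
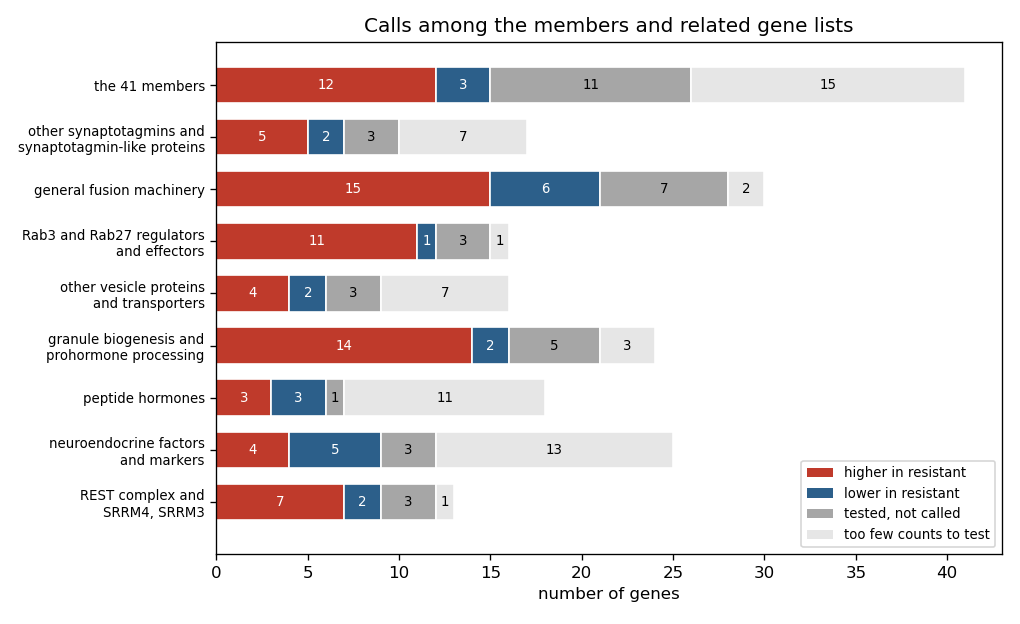
Number of genes called higher, called lower, tested without a call, and too low to test, for the 41 members and the 8 related lists, at an adjusted p below 0.05 in edgeR. Rab3 and Rab27 regulators have 11 higher and 1 lower, and neuroendocrine factors and markers have 4 higher, 5 lower and 13 too low to test.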

How the data were processed

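RNA of 4 C4-2 libraries was aligned with STAR 2.5.2b to GRCh38 and reads were counted per gene by HTSeq, as the submitters' processing notes name these tools; no source used here gives the counting mode, the strand setting or the annotation. Raw counts were deposited by the authors as 1 table per library. The 5 rows that are not genes (55.41% to 74.4% of a library's records) were left out. Identifiers were matched without version to GENCODE 29 (56753 of 60483). Counts were filtered with filterByExpr (minimum count 10), scaled by TMM, and tested by the edgeR 4.0.16 quasi-likelihood test (R 4.3.3) in 1 fit over the 4 libraries by group, adjusting over 20325 genes. The standard error is the log2 fold change divided by the root of the F statistic. Levels per kilobase used the union of GENCODE exons. Replicates differed by more than sampling noise (chi-square per degree of freedom 2.38 in the resistant pair and 5.67 in the control pair), so each library counted once. Alternatives were DESeq2 1.42.0, other scalings and filters, each library left out, a replicate block, and a length and GC correction by a smooth fit (mgcv). The test was also run on simulated data, whose outcome is not reported here.

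Members and lists were chosen with earlier results of these data known. Members with 10 or more counts in a library are given by library and the others by counts. From each related list the 3 called genes of smallest adjusted p could be named, with REST, SRRM4, ENO2, NCAM1, SYTL2, VGF and PAM; VAMP8, SNAP23, CALCA, CALCB and NTS were added after their values were seen, and some genes of the lists are not reported here. Intervals and floors (3 counts) cover counting error only, since reads are not independent molecules.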

Additional observations from a re-analysis of the deposited data

How the results depend on the processing

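The 12 members that rose were called higher under every alternative run, except that SYT1 was not tested with a filter of 1 CPM (11 higher). With no count filter SYT3 was also called higher (log2 fold change 2.45, adjusted p = 0.0159), which made 13. Members called lower, 3 as reported, numbered 1 when scaled by total count, 1 with no count filter, and 1 to 3 when each library was left out. Related genes called lower numbered 29, and 19 under total count scaling. Over all genes, 51% of calls were higher and 64.4% under total count scaling, where the median log2 fold change turned to 0.172, and without a filter to 0.0236. Uncalled members changed sign, all without a call: SYT2 to 0.156 under total count scaling, 0.0643 without a filter, 0.348 without control replicate 1 and 0.077 without resistant replicate 2 (lowest -0.363 of the fits that leave out 1 library), SYT12 to -0.172 without control replicate 1 and -0.104 without resistant replicate 1 (highest 1.57), SV2B to -0.2 (highest 1.7) and UNC13A to -0.0739 (highest 0.4) without control replicate 1, and SYP to -0.0587 without control replicate 2 (highest 0.325). With the length and GC correction SYP was at -0.188, STX1A at -0.0231 and UNC13A at -0.32. The cause of these changes was not tested.

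VAMP1 was called lower with the 1 CPM filter, without control replicate 2 and with the length and GC correction (adjusted p = 0.0339, 0.0441 and 0.0331). Same-numbered libraries share only a number: their deviations correlated at -0.182 across 11907 genes. With the replicate block 12 members were higher and 3 lower, and 13091 of all genes were called, against 13148 without it. A crossed pairing, added after seeing the data, gave 12 and 4, and 13741 calls in all. Depth limits members below about 1 CPM: 8 of the 26 tested averaged under that in both groups, and their intervals are wide.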
